A study of Mus musculus with 48 samples.

Results

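T cell receptor gene segments were followed in bulk RNA-seq of subcutaneous white adipose tissue (sWAT) from mice on 2 feeding schedules. The members were selected on their total read count, as rows of the count table annotated as T cell receptor V, D, J or C genes with a total of at least 48 counts over the 48 libraries. This gave 150 of the 54532 genes listed, out of 226 rows with such an annotation. The other 76 rows held 887 counts together, and 15 of them were at 0 in all libraries. Just inside the minimum were Traj33 and Trav3-4 with 50 counts each, and just outside was Tcrg-C3 with 45. The rule used the total count only, so the diet and time of a library did not enter it.

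The mice were male animals of 8 months, C57BL/6 by the labels and C57BL/6J in the study's text, fed a regular chow either freely (ad-lib) or in twice-a-night meals (TAN). Both diets were sampled at 6 times of day with 4 libraries per diet and time, in 12 groups. The series describes the material as the stromal vascular fraction of the inguinal depot and the paper as whole sWAT, and adipocyte transcripts such as Adipoq, which encodes adiponectin, were abundant in the libraries (18068 to 67925 summed CPM of 9 adipocyte markers at 4:00 p.m.). Times are given as the sample labels have them, whereas the values that the study lists for single libraries match these libraries under times 12 h apart (48 of 48 libraries over 20 genes), which leaves the groups themselves as they are. The study's methods leave out lymph nodes where they describe isolating stromal vascular cells, and how nodes were handled for the bulk RNA is not given in the sources used here. The labels do not say whether libraries of a group came from separate animals, so p-values measure the spread between these libraries.

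T cells recognise antigen through a receptor of an alpha and a beta chain or of a gamma and a delta chain. Each chain is assembled during T cell development by joining one of many V segments, in beta and delta also a D segment, to a J segment, and the joined exon is spliced to a constant (C) gene. Every mature transcript of a chain therefore holds its C gene, whereas a given V or J segment is present only in the cells that chose it. A mixed population of T cells uses many V and J segments at once, and adipose tissue and its lymph nodes both contain alpha-beta and gamma-delta T cells.

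The alpha locus contributed 96 members (65 V, 30 J and 1 C), the beta locus 38 (21 V, 2 D, 13 J and 2 C), the gamma locus 10 (5 V, 2 J and 3 C) and the delta locus 6 (4 V, 1 J and 1 C). Together they held 348945 counts, of which 67.0% fell on beta, 25.9% on alpha, 4.03% on gamma and 3.05% on delta. The beta C genes Trbc1 and Trbc2 alone took 53.0%. Alpha and delta segments are interleaved on chromosome 14, and 12 V members carry both letters in their names, so the division of V counts between these chains is by annotation. Of the 150 members, 9 overlap another annotated gene, among them Trdc and Trdv5 on opposite strands, and the strandedness of the libraries is not given in the sources used here, so that reads of such pairs cannot be told apart.

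The segments differ in length by far, which sets how many reads each can hold. The beta D segments and several J segments are shown because they are the shortest members counted and because the J segments return in the comparisons of diets. All lie on the forward strand of GRCm38 as single exons, and the letters come from the GENCODE M21 transcripts. Capitals in the J segments mark the conserved J motif on the coding strand, which is TTT, TTC or TGG (phenylalanine or tryptophan) followed by GGN, NNN and GGN (glycine, any residue, glycine), and the D segments are in capitals throughout. The coordinates are chr6:41533201-41533212 for Trbd1, chr6:41542163-41542176 for Trbd2, chr6:41533864-41533911 for Trbj1-1, chr6:41534323-41534372 for Trbj1-3, chr6:41534811-41534861 for Trbj1-4, chr6:41535084-41535133 for Trbj1-5, chr6:41535554-41535606 for Trbj1-6, chr6:41535642-41535687 for Trbj1-7, chr6:41543810-41543856 for Trbj2-7, chr14:54198790-54198846 for Traj21 and chr14:54217292-54217357 for Traj3.
Trbd1: GGGACAGGGGGC
Trbd2: GGGACTGGGGGGGC
Trbj1-1: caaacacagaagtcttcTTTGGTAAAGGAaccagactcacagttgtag
Trbj1-3: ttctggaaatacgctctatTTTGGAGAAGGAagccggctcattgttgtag
Trbj1-4: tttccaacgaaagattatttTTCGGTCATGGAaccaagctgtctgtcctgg
Trbj1-5: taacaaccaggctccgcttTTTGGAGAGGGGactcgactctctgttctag
Trbj1-6: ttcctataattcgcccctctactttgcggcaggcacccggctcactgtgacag
Trbj1-7: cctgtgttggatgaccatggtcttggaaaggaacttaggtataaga
Trbj2-7: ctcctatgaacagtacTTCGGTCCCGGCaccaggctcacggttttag
Traj21: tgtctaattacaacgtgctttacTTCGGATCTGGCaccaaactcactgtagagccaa
Traj3: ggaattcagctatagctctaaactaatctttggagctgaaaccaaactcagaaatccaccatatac
The letters were found in 57 of the 70 annotated J rows (81.4%) and in 39 of the 46 J members on the coding strand, and in 0 of the 70 rows on the opposite strand. Among stretches of V transcripts of the median J length, 60 bases, 0.819% held them on the coding strand and 0.117% on the opposite strand. Trbj1-6, Trbj1-7 and Traj3 did not hold these letters. Trbd1, of 12 bases, was nevertheless counted 481 times, and Trbd2, of 14 bases, 135 times.

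Many V members have near copies elsewhere in the locus, which bears on how far a count belongs to 1 gene. Of the 65 alpha V members, 24 were at least 95% identical to another V row, and Trav9n-3 and Trav14n-1 were identical over their whole transcripts to Trav9d-3 and Trav14d-1. The median identity of an alpha V member to its closest row was 92.8%, against 64.8% for the 21 beta V members, none of which reached 95%. Trbc1 and Trbc2 were identical over their first 259 bases, so the split of reads between them rests on the later part. Their bases 241 to 280 are shown with the first difference in capitals, on the forward strand from the genes at chr6:41538218-41539881 and chr6:41546730-41548352, both of 4 exons.
Trbc1: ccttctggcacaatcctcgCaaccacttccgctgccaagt
Trbc2: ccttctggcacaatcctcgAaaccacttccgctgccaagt
Tcrg-C1 and Tcrg-C2 were 94.1% identical, with at most 104 bases in a row the same, and Tcrg-C4 was 67.0% identical to Tcrg-C1. The values of Trbc1 against Trbc2, of Tcrg-C1 against Tcrg-C2 and of single alpha V segments are therefore uncertain to the extent that the counting divided shared reads.

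Per kilobase of gene length, the beta constant genes stood highest and the gamma and delta constant genes lowest. Over the 24 ad-lib libraries the median level was 130 CPM per kilobase for Trbc2, 75.9 for Trbc1, 72.2 for Trac, 8.06 for Tcrg-C1, 4.96 for Tcrg-C2, 2.65 for Trdc and 1.90 for Tcrg-C4 (CPM, counts scaled to the library total after TMM normalization). Over the 24 TAN libraries it was 103.6 for Trbc2, 63.8 for Trbc1, 54.8 for Trac, 5.31 for Tcrg-C1, 3.57 for Tcrg-C2, 1.66 for Tcrg-C4 and 1.47 for Trdc, so that only Trdc and Tcrg-C4 changed places in the order. The ranges of neighbouring genes overlapped in this order, as each spanned libraries with almost no T cell transcripts. The place of Trdc depends on its annotated length of 3865 bases, against 914 to 985 for the gamma constant genes. In CPM not divided by length, its ad-lib median of 10.2 was above 7.45 for Tcrg-C1, 4.54 for Tcrg-C2 and 1.88 for Tcrg-C4. Trac ran from 0.841 to 128.8 CPM in ad-lib and from 0.270 to 357.7 CPM in TAN libraries. In V segments the most counted were Trbv16 with 4653, Trbv3 with 3982 and Trbv13-2 with 3633, and in J segments Trbj2-7 with 833, Trbj1-6 with 652 and Trbj1-5 with 621. The most counted alpha V members were Trav14-1, Trav7-4 and Trav14n-3 with 818, 704 and 561 counts, and the alpha J members Traj3, Traj4 and Traj7 with 256, 166 and 163. In gamma and delta these were Trgv2 with 891, Tcrg-V4 with 368, Tcrg-V6 with 339, Trdv4 with 1628, Trdv2-2 with 153 and Trdv1 with 147, followed by the J members Trgj4 with 109, Trgj1 with 69 and Trdj2 with 60.

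The amount of T cell receptor transcript varied widely between libraries. Member counts ran from 93 to 43104 per library, with total counts of 15636378 to 29913310. In 10 libraries the members held only 93 to 360 counts, and in the other 38 they held 1243 to 43104. The same 10 libraries had under 3 CPM of Glycam1, a secreted mucin of lymph node high endothelial venules (at most 1.24 CPM, against at least 10.8 CPM in the others), and at most 32.2 summed CPM of 10 B cell markers, against at least 246.0. They were 4 ad-lib libraries (library 4 at 8:00 a.m., 1 and 3 at 12:00 p.m., 3 at 4:00 a.m.) and 6 TAN libraries (1, 2 and 4 of 4:00 p.m., number 4 of 8:00 p.m., and 2 and 4 of 12:00 a.m.). The 2 sets were named after the values had been seen, and whether these libraries held less lymph node or fewer T cells in the fat was not tested. In bulk tissue, fewer T cells and less receptor RNA per cell cannot be told apart.

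**Figure D1:**
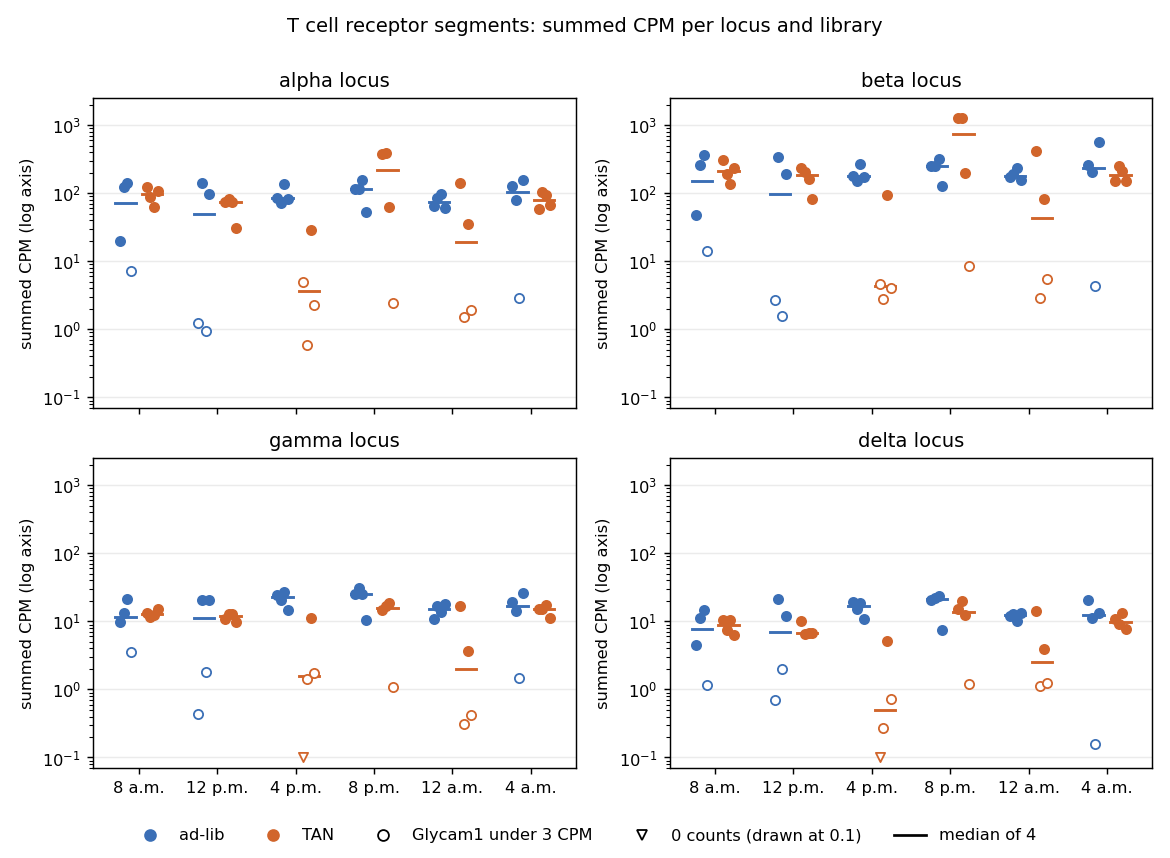
Summed CPM of the members of each locus in every library (log axis), by labelled time, for ad-lib (blue) and TAN (orange), with the median of 4 as a line. Open points are the 10 libraries under 3 CPM of Glycam1, of which 3 are the TAN libraries at 4:00 p.m., and a triangle marks 0 counts.

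B cell markers and T cell receptor members moved together across libraries. The ratio of the summed CPM of the members to that of the B cell markers lay between 0.214 and 0.575 in 36 of the 38 libraries with Glycam1. TAN libraries 1 and 2 at 8:00 p.m. stood apart, with ratios of 1.84 and 1.79. In them the members reached 33225 and 43104 counts, while the B cell markers, at 913.3 and 967.3 CPM, were within the range of the other libraries. These 2 libraries differed from each other by more than sampling noise, with a chi-square of 46.2 per gene over 15930 genes, and were kept as 2 samples. Over the 72 pairs of libraries within a group this value ran from 17.7 to 855.2, with a median of 87.8. It does not show whether these 2 libraries came from separate animals.

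**Figure D2:**
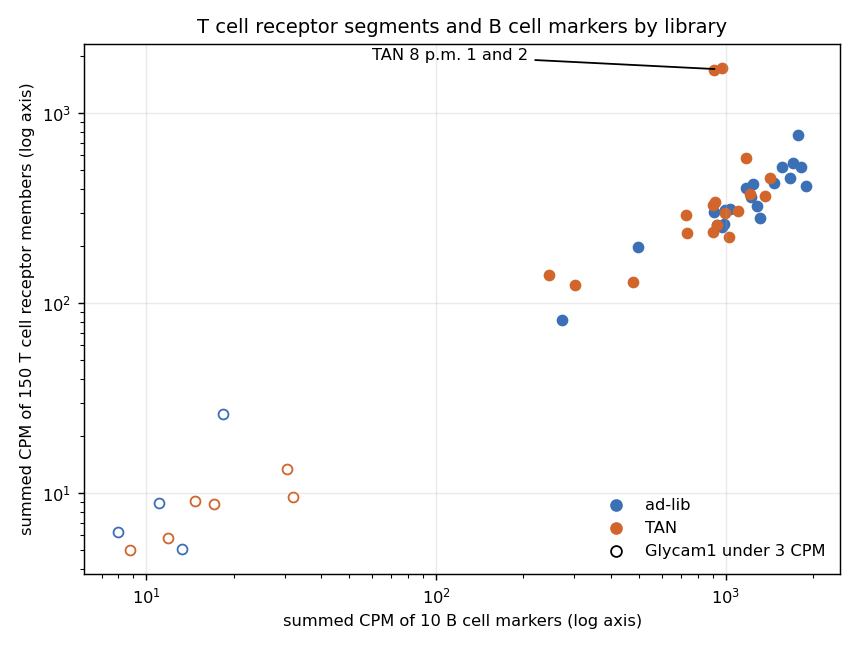
Summed CPM of the 150 members against the summed CPM of 10 B cell markers in the 48 libraries (both log axes). Open points are the libraries under 3 CPM of Glycam1, and the TAN libraries 1 and 2 of 8:00 p.m. lie above the others at ratios of 1.84 and 1.79.

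The gamma and delta loci together held 5.11% to 17.5% of member counts in the 36 libraries with Glycam1 other than these 2, with a median of 9.06%. In TAN libraries 1 and 2 at 8:00 p.m. the share was 1.79% (95% Wilson interval 1.65% to 1.94%) and 2.13% (up to 2.27%). Intervals here cover counting error only. The beta counts were 1.99 to 3.70 times the alpha counts in the 38 libraries with Glycam1, and Trbc1 took 32.8% to 47.1% of the counts of the 2 beta C genes. In the 10 libraries without it, where few counts stand behind a share, the gamma and delta share ran from 0.00% to 59.8%. The value of 0.00% came from TAN library 1 at 4:00 p.m. with 157 member counts, which allows a share of up to 1.91%.

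The diets were compared at each time by edgeR's quasi-likelihood (QL) test over 19977 genes, of which 97 were members. The alpha locus gave 50 of these (40 V, 9 J, 1 C), beta 36 (19 V, 13 J, 2 D, 2 C), gamma 7 and delta 4. The other 53 members reached the cutoff of the count filter in too few libraries to be tested. A member was called at an adjusted p under 0.05 (Benjamini-Hochberg over all genes tested) with an absolute log2 fold change above 1. All calls at single times were lower in TAN.

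At 4:00 p.m. 19 of the 97 members tested were lower in TAN sWAT, 19.6%, where 7.43% of all genes tested were called lower, and 78 did not pass, among them the alpha and beta constant genes. No member was called higher, where 2.93% of all genes were. At an unadjusted p below 0.05, 55 members were lower (14.4% of all genes) and 0 higher (4.79%). The called members were 9 V and 1 J segment of alpha, 2 V and 5 J segments of beta, the delta constant gene Trdc and the gamma constant gene Tcrg-C4. The fitted fold change of all 97 members tested was below 0, with a median of -3.94 on the log2 scale, or -1.63 when members at 0 in a group are set to their bound, against -0.09 for all genes. In TAN, 51 of the 97 members were at 0 in all 4 libraries.

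Trdc, the constant gene of the delta chain, had 255, 243, 391 and 225 counts in the ad-lib libraries and 0, 2, 71 and 0 in the TAN libraries. All TAN values lay under all ad-lib values, and library 3 alone held most of the TAN counts. The log2 fold change was -3.83 (SE 1.17, adjusted p = 0.0278 by edgeR's QL test). Tcrg-C4, the constant gene of a gamma cluster, had 61, 47, 139 and 50 counts in ad-lib and 0, 2, 0 and 6 in TAN, without overlap. Its log2 fold change was -4.83 (SE 1.28, adjusted p = 0.0155 by edgeR's QL test). The other constant genes of gamma, Tcrg-C1 and Tcrg-C2, had fitted values of -2.17 and -2.48 and did not pass (adjusted p = 0.164 and 0.121 by edgeR).

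The alpha and beta constant genes, which hold most of the counts, did not pass at this time. Trac measured 70.1, 54.3, 106.0 and 62.4 CPM in ad-lib and 3.91, 0.270, 25.4 and 1.67 CPM in TAN, so that the groups did not overlap. Its log2 fold change of -3.22 (SE 1.31) had an adjusted p of 0.0808 by edgeR. Trbc1 and Trbc2, at -2.71 and -2.88, had adjusted p-values of 0.141 and 0.139 by the same edgeR test. Summed over each locus, the members measured 93.7 ± 28.3 CPM (SD, n = 4) for alpha in ad-lib and 9.23 ± 13.4 CPM in TAN, and 195.4 ± 53.6 CPM against 26.8 ± 46.0 CPM for beta. The gamma locus measured 21.8 ± 5.36 CPM against 3.61 ± 5.18 CPM. The delta locus measured 19.1, 15.2, 18.8 and 10.9 CPM in ad-lib and 0, 0.270, 5.14 and 0.726 CPM in TAN. In all 4 loci the highest TAN library was number 3, and it was below the lowest ad-lib library.

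Trbv17, a V segment of the beta chain, had 10, 23, 61 and 58 counts in ad-lib and 0 in all 4 TAN libraries at 4:00 p.m. Against the floor of 3 counts per library this is at least 9.60-fold lower in TAN (adjusted p = 0.0147 by edgeR's QL test). The ends of its transcript and of those of 2 other V segments are shown, as the last 60 bases on the forward strand. Capitals mark the letters TGTGC, which hold the codon of the conserved cysteine near the end of the V-encoded part of most chains. Trbv17 lies at chr6:41163062-41163556, Trbv16, the most counted V member, at chr6:41151740-41152230, and Trav14-2, which is called at 8:00 p.m., at chr14:53640701-53641225, each with 2 exons.
Trbv17: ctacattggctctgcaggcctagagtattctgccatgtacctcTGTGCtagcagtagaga
Trbv16: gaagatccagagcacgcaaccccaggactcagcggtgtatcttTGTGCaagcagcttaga
Trav14-2: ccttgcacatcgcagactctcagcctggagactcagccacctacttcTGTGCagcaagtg
TGTGC was found in the last 60 bases of 118 of the 144 annotated V rows (81.9%), in the first 60 bases of 15.3%, and in the last 60 bases of the opposite strand of 33.3%.

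The J segments called were Traj3 and 5 of beta cluster 1, Trbj1-3 to Trbj1-7, whose sequences are given above. Trbj1-1 and Trbj1-2 of the same cluster were tested and did not pass (adjusted p = 0.0501 and 0.0684 by edgeR). Trbj1-5 had 18, 15, 73 and 26 counts in ad-lib, Trbj1-6 had 25, 21, 57 and 23, and both were at 0 in all TAN libraries, at least 8.58-fold and 8.51-fold lower. Trbj1-4 had 8 to 64 counts, Trbj1-3 had 5 to 41 and Traj3 had 7 to 37 in the ad-lib libraries, again against 0 in TAN. Trbj1-7 had 0 to 24 counts in ad-lib, so this group overlapped TAN at 0. The alpha V members called were Trav14-1, Trav7-4, Trav14n-3, Trav9-1, Trav14-3, Trav16, Trav10, Trav7-3 and Trav7-5, with at most 35 counts in an ad-lib library and 0 in all TAN libraries, at least 1.80-fold to 5.28-fold lower. The beta V segment Trbv12-1 had 23, 12, 63 and 63 counts in ad-lib and 0, 0, 0 and 2 in TAN. In 17 of the 19 members called the diets did not overlap, and in 16 all TAN libraries were at 0. These shares were not counted over all genes called, so they describe the calls and not a trait of receptor segments.

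**Figure D3:**
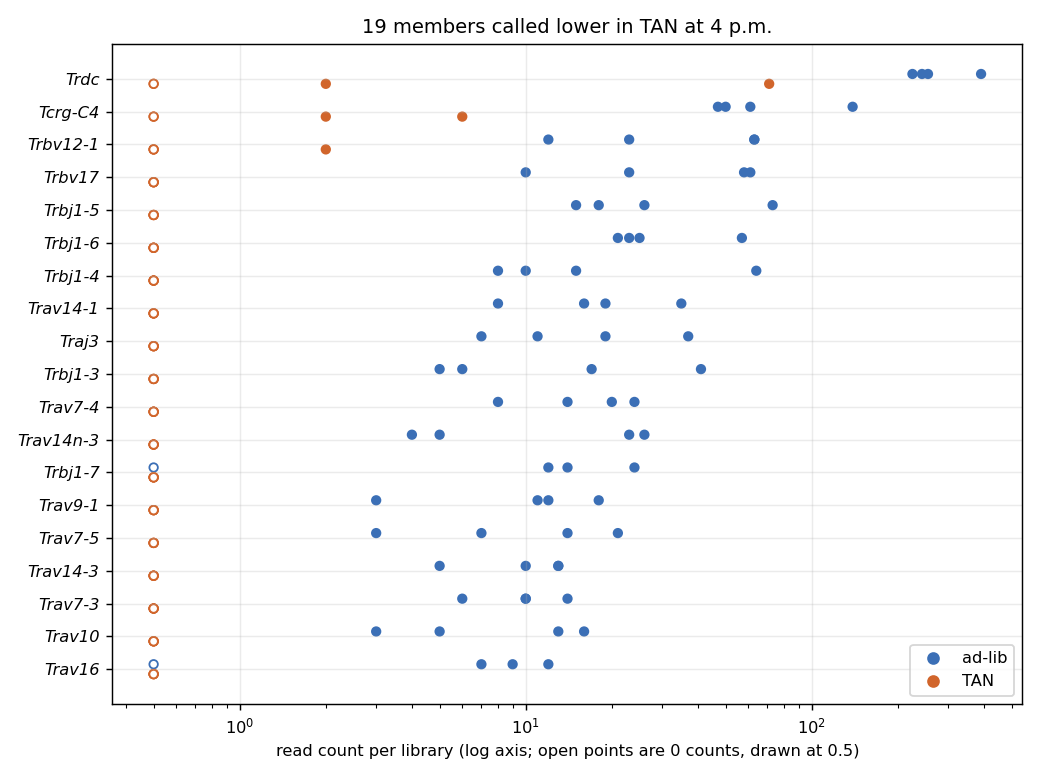
Counts per library (log axis) of the 19 members called lower in TAN at 4:00 p.m., 4 ad-lib libraries in blue and 4 TAN libraries in orange for each gene. Open points are counts of 0, which all 4 TAN libraries show in 16 of the 19 genes.

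Most lists of other lymphocyte transcripts moved with the receptor segments at this time. The genes of group 2 innate lymphoid cells split in direction, with 3 of 6 tested fitted below 0. Of these 6, 0 were called, and their median log2 fold change was -0.35. The genes of gamma-delta and innate-like T cells split as well, with 4 of 8 tested fitted below 0. Cd4, the coreceptor of helper T cells, fell by 4.22 on the log2 scale (SE 1.33, adjusted p = 0.0321 by edgeR's QL test) and Cd3g, a signalling subunit of the receptor complex, by 3.74 (SE 1.31, adjusted p = 0.0473 by edgeR). These were 2 of the 7 genes of the CD3 complex and coreceptors that passed, and the medians of the receptor lists are given beside the -0.09 of all genes. Of the genes of proximal receptor signalling 6 of 17 were called lower (median log2 fold change -3.16), of T cell identity and homing 7 of 13 (-3.31), of regulatory and effector T cells 4 of 12 (-3.21) and of gamma-delta and innate-like T cells 3 of 8 tested (0.12). Among them were Prkcq, which encodes a protein kinase C of receptor signalling, the Treg factor Foxp3 and the survival cytokine receptor Il7r. Of the 10 B cell markers 6 were called lower (-4.05), with 929.3 to 1666 summed CPM in ad-lib and 8.75 to 246.0 CPM in TAN. Of the 10 genes of lymph node stroma and venules 2 were called lower (-3.01), of 7 NK cell genes 2 were (-1.54), of 9 macrophage genes 1 was (-0.66), and of 9 adipocyte genes 2 were called higher (1.15). The part of lymph node or of B cell content in the difference of the receptor segments was not tested. The B cell markers did not overlap between the diets at this time. A fit with them as a covariate therefore cannot tell diet from B cell content here.

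The calls at 4:00 p.m. rested on which libraries were used. With the mean log2 CPM of the B cell markers as a covariate 0 of the 97 members and 0 of all 19977 genes were called. The fitted difference of Trac was then 0.33 on the log2 scale (adjusted p = 0.842 by edgeR). Without the 10 libraries under 3 CPM of Glycam1, a set chosen after seeing the data that leaves 1 TAN library at this time, 3 of 144 members tested were called, where 5.88% of all genes were called in either direction, and this lone library is assumed to vary like the other groups. When each replicate number of a diet was left out at all times in turn, 1 to 16 members were called. There was 1 without TAN replicate 1, 2 without ad-lib replicate 3 and 3 without TAN replicate 2. There were 6 without TAN replicate 4, 8 without TAN replicate 3 and 11 without ad-lib replicate 4. Trbv17 was called in all 8 of these fits, Tcrg-C4 in 6 and Trdc in 5.

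At 8:00 p.m. 3 members were lower in TAN, 3.09% of the 97, where 5.84% of all genes tested were called lower, and 0 were higher, where 1.19% of all genes were. At an unadjusted p below 0.05 there were 19 lower (12.4% of all genes) and 1 higher (2.51%). Trav14-2, an alpha V segment, had 12, 13, 36 and 8 counts in ad-lib and 0 in all TAN libraries, at least 5.09-fold lower (adjusted p = 0.0243 by edgeR's QL test). Traj3 had 5 to 12 counts and Trbj1-7 had 3 to 21 in ad-lib and both were at 0 in TAN, at least 2.41-fold and 3.07-fold lower. These zeros stood although TAN libraries 1 and 2 held the most member counts of all 48. Without these 2 libraries 0 members were called, and 0 also without either of them with its replicate number. The 3 calls were likewise lost without TAN replicate 3. Of the 8 fits that left out a replicate number, Trav14-2 was called in 5 and Traj3 and Trbj1-7 in 1 each. Without the libraries under 3 CPM of Glycam1, 7 of 144 members tested were lower and 6 higher, where 11.9% of all genes were called in either direction.

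The constant genes of alpha and beta had fitted values above 0 at this time and did not pass in the fit of all 48 libraries. Without the libraries under 3 CPM of Glycam1 the fitted values were 1.47 for Trac, 2.03 for Trbc1 and 2.01 for Trbc2 on the log2 scale. The libraries left out are also those with the fewest member counts. At this time TAN library 4 is dropped and TAN libraries 1 and 2 stay, so this fit cannot tell a diet difference from the choice of libraries. Trac measured 92.5, 89.1, 118.7 and 41.2 CPM in ad-lib and 327.0, 357.7, 52.0 and 1.35 CPM in TAN, so the TAN libraries lay on both sides of the ad-lib range. Its log2 fold change was 1.11 (SE 1.21, adjusted p = 0.602 by edgeR's QL test), and without TAN libraries 1 and 2 it was -1.68. Trbc1 and Trbc2 had 1.67 and 1.65, with adjusted p-values of 0.413 and 0.446 by edgeR. Tcrg-C1, Tcrg-C2, Tcrg-C4 and Trdc had -1.12, -0.72, -0.69 and -0.50, none past the threshold. When the B cell markers were a covariate, 22 members were called higher and 3 lower at 8:00 p.m., where 12.6% of all genes were called in either direction. Those higher were Trac, Trbc1, Trbc2, Trbd1, 14 beta V and 4 alpha V segments, and those lower were Traj3, Trav14-2 and Trav15-1-dv6-1. TAN libraries 1 and 2 stood apart from the other libraries with Glycam1 in their ratio of receptor members to B cell markers. The covariate fit therefore cannot tell diet from these 2 libraries at this time.

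**Figure D4:**
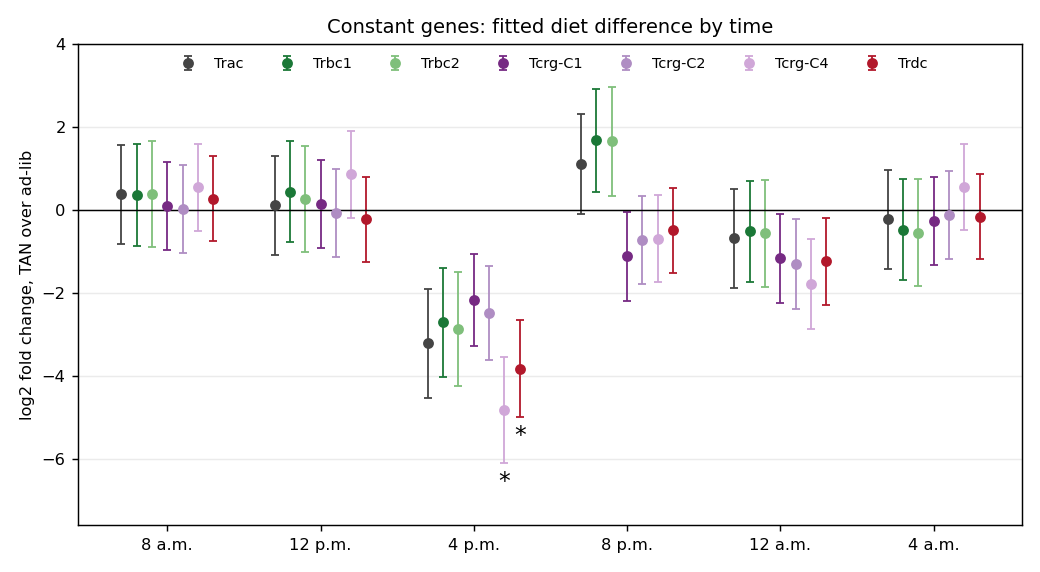
Fitted log2 fold change of TAN over ad-lib with its standard error for the 7 constant genes tested, by labelled time, in edgeR's fit of 48 libraries. Asterisks mark Tcrg-C4 and Trdc at 4:00 p.m., the constant genes with an adjusted p under 0.05.

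At the other 4 times edgeR's quasi-likelihood test called 0 members in either direction. At 8:00 a.m. 0.00501% of all genes were called lower and 0.01% higher, and even at an unadjusted p below 0.05, 0 members were lower (1.16% of all genes) and 0 higher (1.02%), with a median fitted difference of 0.31 on the log2 scale. At 12:00 p.m. 0.00501% of all genes were called lower and 0.0851% higher. Unadjusted, 1 member was lower there (0.551% of all genes) and 6 were higher (2.38%), and the median was 0.20. At 4:00 a.m. 0% of all genes were called in either direction. Unadjusted, 0 members were lower at that time (0.561% of all genes) and 2 were higher (0.601%), with a median of -0.11.

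At 12:00 a.m. the members were lower in TAN on the median, by -1.31 on the log2 scale or -0.69 with members at 0 set to their bound, without passing. Of all genes 0.025% were called lower and 0.11% higher. Unadjusted, 27 members were lower (5.89% of all genes) and 1 was higher (1.62%), and DESeq2 called 3 lower. TAN libraries 2 and 4, which are among the 10 with under 3 CPM of Glycam1, held 93 and 132 member counts, against 13724 and 2128 in libraries 1 and 3.

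Averaged over the 6 times, 8 members were lower in TAN at an adjusted p under 0.05, 8.25% of the 97, where 2.74% of all genes tested were called lower, and 0 were higher, where 2.68% of all genes were. Unadjusted, 36 were lower (13.6% of all genes) and 0 higher (7.86%). The 8 were the J segments Traj2, Traj3, Trbj1-7 and Trbj2-3 and the V segments Trav10, Trav14-2, Trav14n-1 and Trav7-3, all with medians of at most 0.462 CPM in either diet. No constant gene was among them. Without the libraries under 3 CPM of Glycam1 the mean log2 fold change was -0.70 for Trdc and -1.64 for Tcrg-C4. This set leaves TAN library 3 alone at 4:00 p.m., where Tcrg-C4 was at 0 counts and its fitted value was -9.19. The fitted values of Tcrg-C4 at the other times ran from -0.83 to 0.45, so its mean of -1.64 rests on that library. With all libraries, Trac had a mean log2 fold change of -0.42 (SE 0.49, adjusted p = 0.665 by edgeR's QL test), Trbc2 of -0.28 and Trdc of -0.95 (SE 0.42, adjusted p = 0.181 by edgeR). The median over the 97 members was -0.88, against -0.08 for all genes. By limma voom 0 members were called, and with the B cell covariate 1, which was higher in TAN. Leaving out each replicate number of a diet in turn gave 1 to 12 members, the lowest without ad-lib replicate 2 and TAN replicate 4.

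The diet effect differed between times in 6 members, 6.19% of the 97, where 8.98% of all genes tested did. These were Trbj1-1, Trbj1-7, Trbj2-7, Traj3, Traj21 and Trav5-1. Traj3 had 5, 4, 1 and 14 counts in the TAN libraries at 8:00 a.m., 0 in all 12 TAN libraries from 4:00 p.m. to 12:00 a.m., and 10, 2, 5 and 0 at 4:00 a.m. Trbj1-7 was likewise at 0 in these 12 TAN libraries and had 7, 4, 14 and 9 counts at 4:00 a.m. in TAN. Trbj1-1, Trbj2-7 and Traj21 also had a count in each TAN library at 4:00 a.m., whereas Trav5-1 was at 0 in all TAN libraries at 12:00 p.m. In ad-lib, these 6 members were each at 0 in some libraries as well. Without ad-lib replicate 3, or without TAN replicate 1, 2 or 3, 0 members differed, and 1 without replicate 4 of either diet. Within ad-lib, 0 members varied over the 6 times by edgeR's quasi-likelihood test, where 0.0551% of all genes did, and 0 had an unadjusted p below 0.05 (6.67% of all genes). DESeq2 and limma voom also gave 0. Within TAN 15 members did, 15.5% of the 97, where 23% of all genes did. They were 9 J segments, among them Trbj1-7 (adjusted p = 0.0164 by edgeR) and Traj3 (0.0254), and 6 V segments, among them Trbv17 (0.0311). Without TAN replicate 1 or 2 this count was 0, without TAN replicate 3 it was 3, and without TAN replicate 4 it was 5.

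The share of J segments among the member counts differed widely between libraries. In the 38 libraries with at least 1000 member counts it ran from 0.00% to 5.90%, with a median of 3.04%, whereas the share of V segments ran from 12.95% to 21.6%. In the 26 of these libraries with a count on 20000 genes or more, a split chosen after seeing the data, the J share was 1.02% to 5.90% with a median of 3.48%. In the 12 with fewer genes it was 0.00% to 2.49% with a median of 0.768%, and 6 of these were ad-lib and 6 TAN. Both diets therefore held libraries of either kind, and the J share moved with the number of genes detected in each.

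In ad-lib library 1 at 8:00 a.m. 0 of 1243 member counts were on J segments, which allows a share of up to 0.241%, and this library had counts on 16451 genes. TAN libraries 1 and 2 at 8:00 p.m., with the most member counts, had a J share of 0.512% (95% Wilson interval 0.440% to 0.594%) and 0.508% (0.445% to 0.580%) and counts on 15271 and 15866 genes. They had a count on 65 and 64 of the 150 members, against up to 131 in ad-lib library 2 at 8:00 a.m. with 8563 member counts. At an equal depth of 500 V and J counts, the expected number of V and J members seen was 50.8 and 48.3 in these 2 libraries and 33.9 to 67.5 in the 10 libraries with under 20000 genes that reach this depth, against 68.2 to 100.2 in the 26 with more.

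At 4:00 p.m. the 4 ad-lib libraries had counts on 21185 to 22587 genes and the 4 TAN libraries on 15693 to 20089, and at 8:00 p.m. the ad-lib libraries on 21364 to 22595 and the TAN libraries on 15271 to 18114. The number of genes detected therefore moved with diet at the 2 times where members were called, and its part in the calls of J and alpha V segments was not tested. TAN library 3 at 4:00 p.m., with 3055 member counts, had a J share of 0.687% and 17680 genes detected, against J shares of 3.06% to 5.90% in the ad-lib libraries of that time.

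**Figure D5:**
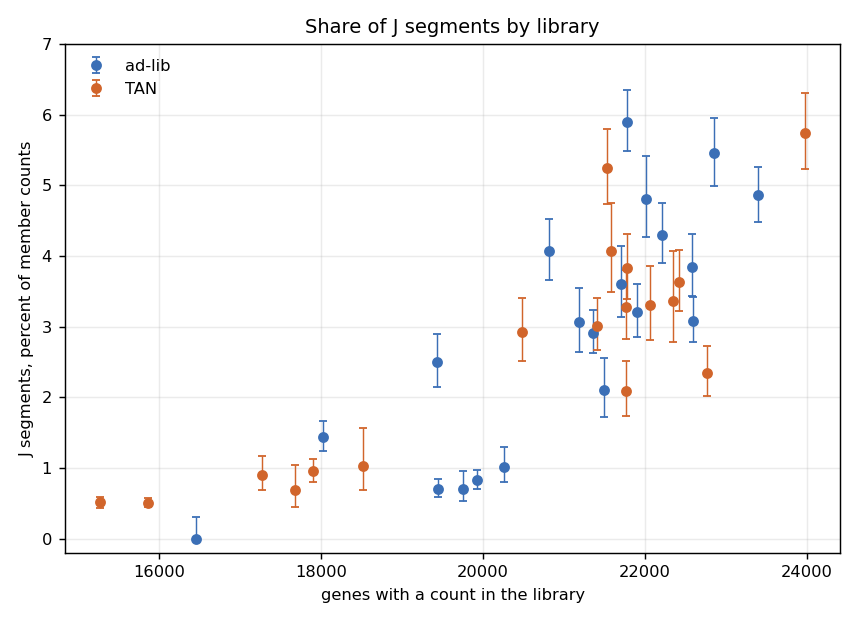
J segments as a percentage of member counts, with 95% Wilson intervals for counting error, against the number of genes with a count, in the 38 libraries with at least 1000 member counts. Libraries with under 20000 genes lie at 0.00% to 2.49% in both diets, those with more at 1.02% to 5.90%.

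Genes of the joining machinery varied between libraries. Rag1, an endonuclease subunit of V(D)J recombination, was at 0 to 14.1 CPM, and Ptcra, the surrogate alpha chain of developing thymocytes, was at 0 to 0.136 CPM in all 48 libraries. Dntt, the polymerase that adds bases at the joints, was highest in TAN libraries 1 and 2 at 8:00 p.m. with 14.3 and 12.7 CPM, where Rag1 and Rag2 were at 0 counts, and did not exceed 7.21 CPM elsewhere. At 4:00 p.m. Rag1 was called lower in TAN, 1 of 3 genes of this list tested, where 7.43% of all genes were. With the B cell covariate it was not called, where 0 of all 19977 genes were called at this time.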

How the data were processed

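Bulk RNA-seq of sWAT was analysed in 48 libraries of 2 diets and 6 times. The authors selected poly-A RNA, primed cDNA with random hexamers, sequenced paired-end reads and deposited raw counts per gene, without normalization. The submitters' processing notes name TopHat 1.3.3, DESeq2 1.20.0, limma and edgeR and the builds mm9, mm10 and GRCm38, with no role. All 150 members have the coordinates of GENCODE M21 (GRCm38). Deposited FPKM values, averaged by group, were not used.

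Members and gene lists were chosen with earlier results of these data known. Counts were fitted with edgeR 4.0.16 in R 4.3.3 (filterByExpr at a minimum count of 10, TMM, 1 robust quasi-likelihood model of 12 groups). P-values were adjusted over 19977 genes. CPM was computed with TMM factors, and a count of 0 was given a floor of 3 counts per library. Log2 CPM for the pairing check and for the B cell covariate used a prior count of 2. Short segments and near copies can lose or share reads, and how the counting treated them is not given in the sources used here. Named members were the constant genes, the most counted V, D and J members of each locus and the called members with the largest fold changes. Members named outside this rule, such as the remaining calls, were named after their values were seen. Of other lists, genes with a high mean CPM were named, and Foxp3, Prkcq and Adipoq were named after their values were seen.

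The alternatives were no filter or a stricter one, RLE, DESeq2 1.42.0, limma 3.58.1 voom, a replicate block, a B cell covariate, a fit per time and leaving out libraries. The fit was tested on simulated data. Library totals ran from 15636378 to 29913310 counts, and 0 columns of sample values were left out.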

Additional observations from a re-analysis of the deposited data

Results flagged for a closer look

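In groups of 4 libraries, 1 library stood apart from the other 3 in the summed CPM of a locus in 6 of 48 tests (12 groups by 4 loci) by Dixon's ratio at the 95% level, all 6 in 2 groups. At 4:00 p.m. TAN library 3 was the highest in all 4 loci, with 29.1 CPM for alpha, 95.8 CPM for beta, 11.3 CPM for gamma and 5.14 CPM for delta. It was the TAN library of that time with over 3 CPM of Glycam1, and the 4 loci share this library. At 12:00 p.m. the lowest TAN library for alpha was at 30.8 CPM and the highest for delta at 10.1 CPM. Such a ratio is passed by chance in about 5% of tests.

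The diet effect differed between the 6 times in 6 members by the interaction test of edgeR's quasi-likelihood fit. The adjusted p was 0.0288 for Trbj1-1, 0.0348 for Traj3, 0.0393 for Trbj2-7, 0.0410 for Traj21, 0.0442 for Trav5-1 and 0.0469 for Trbj1-7 by edgeR. Of all genes tested 8.98% passed the same test.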

How the results depend on the processing

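At 4:00 p.m. 19 members were called lower, and other settings gave 10 without a filter on low counts, 12 in a separate fit per time (30 members tested), 32 by DESeq2, 30 without TAN libraries 1 and 2 of 8:00 p.m., 3 without the libraries under 3 CPM of Glycam1 and 0 with the B cell covariate. Leaving out 1 replicate number of a diet gave 1 to 16. At 8:00 p.m. 3 were called, against 1 without a filter, 9 by limma voom, 5 by DESeq2, 0 in a separate fit, 0 without TAN libraries 1 and 2, 13 without the libraries under 3 CPM of Glycam1 and 25 with the B cell covariate, where the direction turned (22 higher). Leaving out 1 replicate number gave 0 to 3. At 12:00 a.m. DESeq2 called 3. The mean over times gave 8, against 0 by limma voom, 5 by DESeq2, 23 without TAN libraries 1 and 2 of 8:00 p.m. and 1, higher in TAN, with the B cell covariate, and 1 to 12 without a replicate number. The diet effect differed between times in 6, against 2 without a filter, 24 by limma voom, 15 by DESeq2, 15 without TAN libraries 1 and 2 of 8:00 p.m. and 0 to 9 without a replicate number. Within TAN 15 varied over time, against 30 by DESeq2 and 0 to 17 without a replicate number. Calls over all genes, in either direction, moved as well. Without TAN libraries 1 and 2 of 8:00 p.m. they were 12.5% at 4:00 p.m., against 10.4% with all 48 libraries. In the mean they were 12.3% against 5.42%. At 8:00 p.m. they were 7.03% with all 48 libraries and 7.47% without these 2. They were 11.9% there without the libraries under 3 CPM of Glycam1 and 12.6% with the B cell covariate. The 2 sets of libraries were chosen after seeing the data, and the cause of these differences was not tested.

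Same-numbered libraries of the 2 diets were not treated as paired, since the residual correlation was over 0.1 in 10 of 24 pairs (median -0.0127). With the replicate number as a block 18 members were called at 4:00 p.m., 1 at 8:00 p.m., 4 in the mean, 4 in the interaction and 10 within TAN.

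At 4:00 p.m., at 8:00 p.m. and in the mean, the sign of a constant gene changed in 16 values. Where no member was called by edgeR, the sign turned in 7 of the 7 constant genes at 8:00 a.m., in 4 at 12:00 p.m. and in 3 at 12:00 a.m. with the B cell covariate, and in 6, 5 and 3 at these times without the libraries under 3 CPM of Glycam1. With the B cell covariate the log2 fold change at 4:00 p.m. was 0.33 for Trac, 0.48 for Trbc2, 1.202 for Trbc1, 0.39 for Tcrg-C1 and 0.13 for Tcrg-C2, at 8:00 p.m. 0.16 for Trdc and 0.26 for Tcrg-C2, and in the mean 0.14 for Trac, 0.29 for Trbc2 and 0.42 for Trbc1. At 8:00 p.m. Trac was at -0.51 by limma voom, and without TAN libraries 1 and 2 Trac, Trbc2 and Trbc1 were at -1.68, -1.13 and -1.30. The mean of Trbc1 was -0.61 to 0.047 when a replicate number was left out, above 0 without TAN replicate 4, and 0.00027 without the libraries under 3 CPM of Glycam1.

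Low counts limit single V and J segments, since 3 TAN libraries at 4:00 p.m. held 93 to 158 member counts, and a fold against a group at 0 is a lower bound.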
